A study of Mus musculus with 6 samples.

Results

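Histones are the proteins around which DNA is wound in the nucleus, and the genes described here are those that carry the names of the clustered histone genes. They were chosen by name alone from the deposited expression table, as the rows whose gene name starts with Hist1h, Hist2h, Hist3h or Hist4h, or with the newer symbols H1f, H2ac, H2bc, H3c or H4c followed by digits, without the rows marked as pseudogenes by -ps. This rule took 70 of the 55487 genes in the table. By class, 10 of them were H1 genes, 19 H2A, 17 H2B, 12 H3 and 12 H4. By their annotated symbols, 56 belonged to the first histone cluster (Hist1, on chromosome 13) and 10 to the second (Hist2, on chromosome 3). The other 4, *H1f0*, *H1f7*, *H1f8* and *H1f10*, are linker histone genes that the newer symbols share a prefix with but that lie outside the clusters. Conversely, the table gave 3 genes of the Hist3 and Hist4 clusters the names *H2bu2*, *H2aw* and *H4f16*, which the rule did not take. According to the annotation, 2 of the 70, *H2ac14* and *Hist1h2al*, are pseudogenes. *Hist1h2al*, counted in the first cluster by its symbol, lies at chr13:51202727-51203065, apart from the other genes of that cluster.

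The RNA-seq libraries of M1 dental epithelium compared mice of genotype *Wnt10a* fl/fl (control, labelled Wnt10aflox/flox, 3 libraries) with *K14-Cre;Wnt10a* fl/fl mice (cKO, labelled K14-Cre;Wnt10aflox/flox, 3 libraries), all at PN2.5. Both groups carried the floxed *Wnt10a* alleles, and only the cKO mice carried Cre recombinase under the keratin 14 promoter, which acts in epithelial cells and leaves *Wnt10a* of other cells in place. Each library came from a pool of first mandibular molars, 4 per library in the design text and 5 in the methods. The methods write of 3 pairs of biological replicates without saying what was paired, and the fit reported here used no pairing. Whether the pools shared litters was not stated, so p-values measure the spread between these pools. Values are TPM, which are scaled to transcript length and to the library total and keep no sequencing depth.

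The targeted gene was checked first. *Wnt10a* was 56.0, 51.2 and 57.9 TPM in the controls and 22.7, 21.8 and 32.2 TPM in the cKO libraries, and every library matched its label. The log2 fold change was -1.10 (SE 0.19, unadjusted p = 0.000653, adjusted p = 0.75, limma). Markers of the labelled tissue were high. The enamel matrix gene *Amelx* was the highest epithelium marker (85454 to 203538 TPM), and its lowest value was in cKO replicate 2. Markers of other cell types were present, led by the mesenchyme gene *Col1a1* (1795 to 3127 TPM), the erythroid gene *Hba-a2* (409 to 814 TPM) and the endothelial gene *Pecam1* (13.0 to 27.1 TPM), whereas the top skeletal muscle marker, *Mylpf*, was at 3.25 to 5.55 TPM. In a bulk library, fewer cells of a type and less RNA per cell cannot be told apart.

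Core histones H2A, H2B, H3 and H4 form the nucleosome, and the linker histone H1 binds DNA where it enters and leaves it. Genes in the clusters are transcribed mainly in S phase, when newly copied DNA needs histones. Most of their mRNAs end not in a poly(A) tail but in a short hairpin, the histone stem-loop, which the stem-loop binding protein (SLBP) holds while the mRNA is cut just after it. Linker histone *H1f0* is different: it is not tied to S phase, accumulates in cells that stop dividing and has a polyadenylated mRNA. Library kits that capture poly(A) tails therefore see cluster genes poorly, apart from transcripts that run past the hairpin to a poly(A) signal. The labels name a TruSeq RNA sample preparation kit on total RNA and do not state how rRNA was removed. The methods of the study name mRNA extraction before the libraries were made, without saying how the mRNA was captured.

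The stem-loop was searched in the annotated transcripts as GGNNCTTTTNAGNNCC with both arms of the stem of 6 bases complementary, on the sense strand only. It was found in 41 of the 70 genes and in 0.223% of all 21951 protein-coding genes. The 41 genes held 6 different 16-base sequences. They are printed here because the 10 H4 genes with a stem-loop differed from the 31 other genes in the stem itself. Each line gives the stem-loop in capitals with 5 flanking bases on either side in lower case, 5′ to 3′ on the sense strand (GENCODE M21, GRCm38), for the gene with the highest level among those that hold each of the 6 sequences and for an H2A, an H2B and an H3 gene that share that of *H1f2*.
*H1f2*: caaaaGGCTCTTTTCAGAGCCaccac
*H2ac19*: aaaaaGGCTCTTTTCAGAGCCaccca
*H2bc8*: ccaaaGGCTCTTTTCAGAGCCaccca
*H3c15*: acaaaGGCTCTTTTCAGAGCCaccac
*H3c3*: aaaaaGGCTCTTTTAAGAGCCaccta
*H2ac20*: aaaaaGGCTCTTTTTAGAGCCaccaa
*H4c9*: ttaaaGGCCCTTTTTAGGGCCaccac
*H4c8*: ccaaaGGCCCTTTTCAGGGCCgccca
*H4c2*: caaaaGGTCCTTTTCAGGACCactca
The sequence of *H1f2* was the most frequent, in 24 genes of the H1, H2A, H2B and H3 classes and in no H4 gene. The sequence of *H3c3* was in 6 genes, and that of *H2ac20* in 1. All 10 H4 genes held a stem of another composition, as in *H4c8* (6 genes), *H4c9* (2 genes) and *H4c2* (2 genes). A gene without a match lacks only these letters in its annotated transcripts, and 17 of the 29 genes without one had under 30 bases annotated after the stop codon, too few to hold the element at its usual place.

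Very few of the 70 genes made up nearly all of their summed level. It was 1114, 888 and 879 TPM in the controls and 1011, 1019 and 1071 TPM in the cKO libraries, about 0.1% of each library. *H1f0*, which lies outside the clusters, alone gave 51.3% of it. The 6 genes with the highest means, all over 40 TPM, gave 93.3%. Of all 70, 21 averaged 1 TPM or more and could be tested, 49 averaged less, 32 were above 0 in every library, and 6 were at 0 in every library. The number of genes above 0 was 52, 44 and 54 in the controls and 60, 55 and 48 in the cKO libraries. Testis-specific genes were at or near the floor: *H2ac1*, *H2bc1* and *H1f7* were at 0 in every library, and *H1f6* (Hist1h1t) was at 0.29 TPM in cKO replicate 1 and at 0 in the other 5. The plot of levels by library shows the 21 tested genes in order of their mean.

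**Figure D1:**
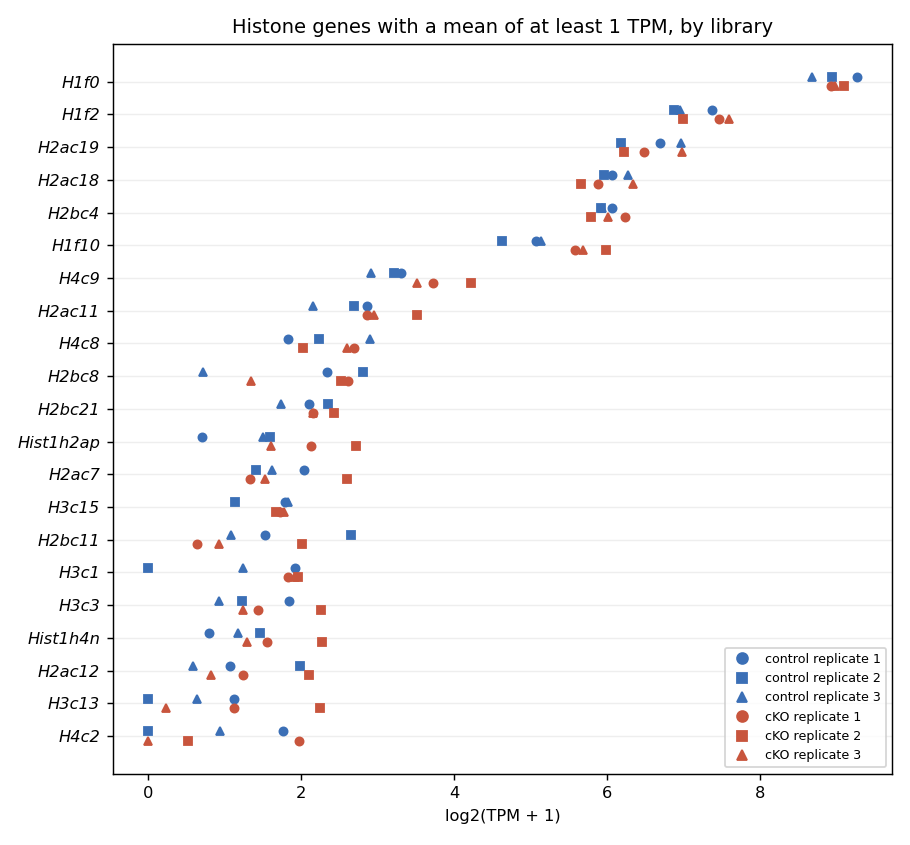
Level of each of the 21 histone genes that averaged 1 TPM or more, as log2(TPM + 1), in the 3 control (blue) and 3 cKO (red) libraries, with the symbol giving the replicate number. *H1f0* stands above all others, and 6 genes have a mean over 40 TPM. The cKO points lie wholly to the right of the control points for *H1f10*, *H4c9* and *Hist1h2ap* only.

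How the transcript ends was not used to choose the genes, and is set here beside their level. The 8 genes averaging 5 TPM or more were *H1f0*, *H1f2*, *H2ac19*, *H2ac18*, *H2bc4*, *H1f10*, *H4c9* and *H2ac11*. Of these, 3 had no stem-loop and at least 30 annotated bases after the stop codon (*H1f0*, *H2bc4* and *H1f10*), and 2 had the stem-loop but ran on for over 100 bases past it (*H1f2* by 840 bases and *H4c9* by 330). The other 3, *H2ac19*, *H2ac18* and *H2ac11*, were annotated to end within 35 bases of it. The 12 genes without the element but with annotated sequence after the stop codon included the highest gene of all, yet their median was only 0.51 TPM. The median was 0.54 TPM for the 19 genes that run on, 0.96 TPM for the 22 that end within 100 bases of the stem-loop and 0.37 TPM for the 17 with under 30 bases after the stop codon. A poly(A) signal (AATAAA or ATTAAA) within the last 40 bases of a transcript was annotated in 17 of the 70 genes and in 79.0% of all protein-coding genes. It was present in 4 of the 8 highest genes (*H1f0*, *H1f2*, *H1f10* and *H4c9*). These shares were not tested, and the annotated ends may not be the ends used in this tissue.

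**Figure D2:**
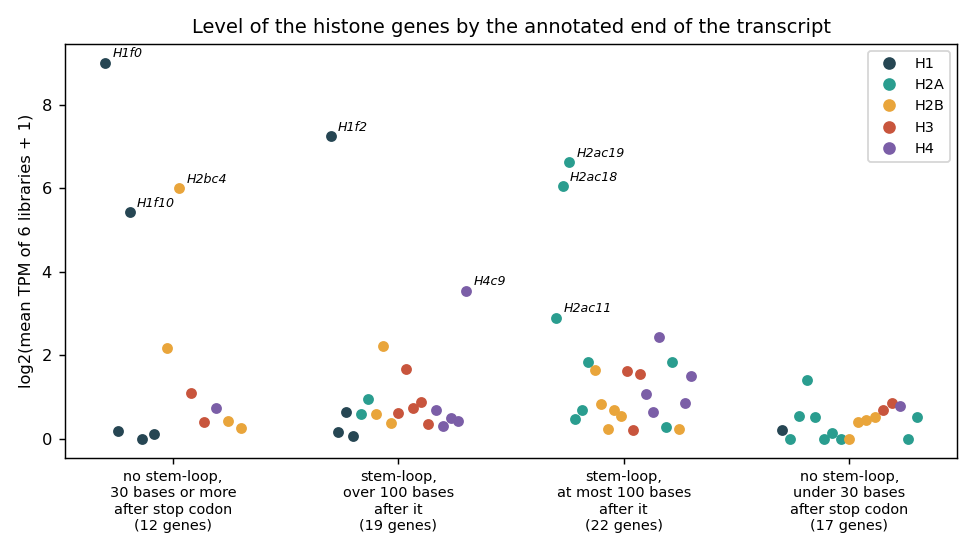
Mean level of each of the 70 histone genes over the 6 libraries, as log2(TPM + 1), grouped by the annotated end of the transcript and coloured by class. The 8 labelled genes average 5 TPM or more, and the rest of each group, including all 17 genes with under 30 annotated bases after the stop codon, lies near the bottom.

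Identical stretches limit how well single genes could be measured. In 34 of the 70 genes at least 50% of all 50-base windows of the longest transcript also occurred in another gene, and in 8 genes none did. The copies *H2ac19* and *H2ac18* shared 100% and 89.4% of their windows with the gene model *Gm20634*, which overlaps *H2ac18*, and *Hist1h2ap* shared 93.1% with *Hist1h2ao*. For these the split of reads between copies is uncertain, and sums are given beside them. *H1f0* and *H1f10* shared none, *H1f2* shared 8.54% and *H4c9* 28.9%.

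Linker histones came first in level. *H1f0* (chr15:79028450-79030504, plus strand) was 619, 495 and 413 TPM in the controls and 489, 551 and 505 TPM in the cKO libraries. The groups overlapped, and the highest and the lowest library were both controls (508.7 ± 104 against 514.9 ± 31.9, SD, n = 3 each; log2 fold change 0.04, SE 0.18, unadjusted p = 0.85 by limma, adjusted p = 1.00). *H1f2* (Hist1h1c, chr13:23738808-23740367, plus strand), the highest of the H1 genes in the clusters, was 165, 117 and 124 TPM in the controls and 177, 127 and 193 TPM in the cKO libraries. Its groups overlapped as well (log2 fold change 0.28, SE 0.22, unadjusted p = 0.23, limma).

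*H1f10* (H1fx, chr6:87980421-87981637, minus strand), a linker histone made independently of replication, was 32.7, 23.7 and 34.3 TPM in the controls and 47.1, 62.8 and 50.5 TPM in the cKO libraries. Every cKO library was above every control library. The mean was 1.77 times the control mean (30.2 ± 5.74 against 53.5 ± 8.24 TPM, SD, n = 3 each), with a log2 fold change of 0.81 (SE 0.20, unadjusted p = 0.00507, adjusted p = 1.00 over all genes tested, limma). Of the remaining cluster H1 genes, *H1f1*, *H1f3*, *H1f4* and *H1f5* had means between 0.12 and 0.55 TPM. The testis-specific *H1f6* was lower, with a mean of 0.048 TPM.

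H2A genes were led by the pair from the second cluster. *H2ac19* (Hist2h2aa2, chr3:96239749-96240276, minus strand) was 103, 72.0 and 125 TPM in the controls and 88.7, 73.8 and 125 TPM in the cKO libraries. *H2ac18* (Hist2h2aa1, chr3:96245497-96246082, plus strand) was 65.8, 61.4 and 76.8 TPM in the controls and 58.3, 49.6 and 80.5 TPM in the cKO libraries. Both lists of values have their lowest library in replicate 2 and their highest in replicate 3 of each group, and the groups overlapped. Summed, the pair was 168 ± 34.1 TPM in the controls and 159 ± 42.4 TPM in the cKO libraries (SD, n = 3 each).

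Next among the H2A genes that the rule took was *H2ac11* (Hist1h2ag). It was 6.27, 5.46 and 3.47 TPM in the controls and 6.26, 10.5 and 6.74 TPM in the cKO libraries, with overlapping groups (log2 fold change 0.54, SE 0.28, unadjusted p = 0.096, limma). *Hist1h2ap* was 0.63, 2.01 and 1.82 TPM in the controls and 3.38, 5.58 and 2.04 TPM in the cKO libraries. Its groups did not overlap, but cKO replicate 3 lay only just above control replicate 2, and the test was not passed (log2 fold change 0.89, SE 0.38, unadjusted p = 0.052, limma). Its near copy *Hist1h2ao* was at 1.25 TPM in control replicate 1 and at 0 elsewhere. The sum of both was 1.88, 2.01 and 1.82 TPM in the controls and 3.38, 5.58 and 2.04 TPM in the cKO libraries, a ratio of means of 1.93.

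Among the H2B genes that the rule took, 1 gene carried most of the sum. *H2bu2*, which the rule did not take, had higher group means, 113 TPM in the controls and 128 TPM in the cKO libraries. *H2bc4* (Hist1h2bc, chr13:23684199-23692908, plus strand), annotated with a spliced transcript of 2 exons, was 66.3, 59.6 and 60.5 TPM in the controls and 74.6, 54.3 and 63.9 TPM in the cKO libraries. The cKO values lay on both sides of the controls (log2 fold change 0.04, SE 0.17, unadjusted p = 0.83, limma). *H2bc8* was 4.06, 6.03 and 0.64 TPM in the controls and 5.10, 4.73 and 1.53 TPM in the cKO libraries, lowest in replicate 3 of both groups. *H2bc21* (Hist2h2be), with a long annotated sequence of 2192 bases after the stop codon, stayed between 2.32 and 4.37 TPM. *H2bc11* had the largest negative log2 fold change among the tested genes (-0.56, SE 0.52, unadjusted p = 0.31, limma), from 1.88, 5.26 and 1.11 TPM in the controls to 0.55, 3.03 and 0.90 TPM in the cKO libraries.

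H3 was the class with the lowest sum. The highest, *H3c15* (Hist2h3c2), was 2.47, 1.19 and 2.55 TPM in the controls and 2.30, 2.17 and 2.43 TPM in the cKO libraries. *H3c1* was 2.78, 0 and 1.37 TPM in the controls and 2.56, 2.90 and 2.78 TPM in the cKO libraries (log2 fold change 0.85, SE 0.47, unadjusted p = 0.11, limma). All 4 H3 genes tested had a positive log2 fold change and none passed the test. The H3 sum was 13.6, 4.21 and 8.33 TPM in the controls and 14.8, 20.2 and 8.39 TPM in the cKO libraries, and the groups overlapped.

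H4 was the class whose sum did not overlap between groups. The 12 H4 genes summed to 17.0, 20.02 and 18.1 TPM in the controls and 26.1, 31.8 and 21.4 TPM in the cKO libraries (18.4 ± 1.52 against 26.4 ± 5.19 TPM, SD, n = 3 each), a ratio of means of 1.44. Most of the difference came from *H4c9* (Hist1h4i, chr13:22040636-22041362, minus strand), at 8.93, 8.27 and 6.51 TPM in the controls and 12.3, 17.6 and 10.4 TPM in the cKO libraries. Every cKO library was above every control library for *H4c9* (log2 fold change 0.68, SE 0.24, unadjusted p = 0.0258, adjusted p = 1.00, limma). Without it the other 11 H4 genes summed to 8.09, 11.8 and 11.6 TPM in the controls and 13.8, 14.2 and 11.0 TPM in the cKO libraries, and the groups overlapped.

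*H4c8* (Hist1h4h), the second H4 gene, was 2.56, 3.71 and 6.44 TPM in the controls and 5.49, 3.05 and 5.09 TPM in the cKO libraries, with no separation of the groups (log2 fold change 0.12, SE 0.34, limma). *Hist1h4n* was 0.74, 1.76 and 1.26 TPM in the controls and 1.93, 3.83 and 1.44 TPM in the cKO libraries, while the sum with its near copy *Hist1h4m* was 1.19, 4.99 and 1.26 TPM against 2.41, 3.83 and 2.11 TPM. For H1, H2A and H2B the class sums overlapped as well, with ratios of means of 1.09, 0.98 and 1.05. Sums over genes are descriptions and were not tested. The other tested genes, *H2ac7*, *H2ac12*, *H3c13*, *H3c3* and *H4c2*, had means between 1.11 and 2.55 TPM, overlapping groups and unadjusted p between 0.31 and 0.92 (limma).

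**Figure D3:**
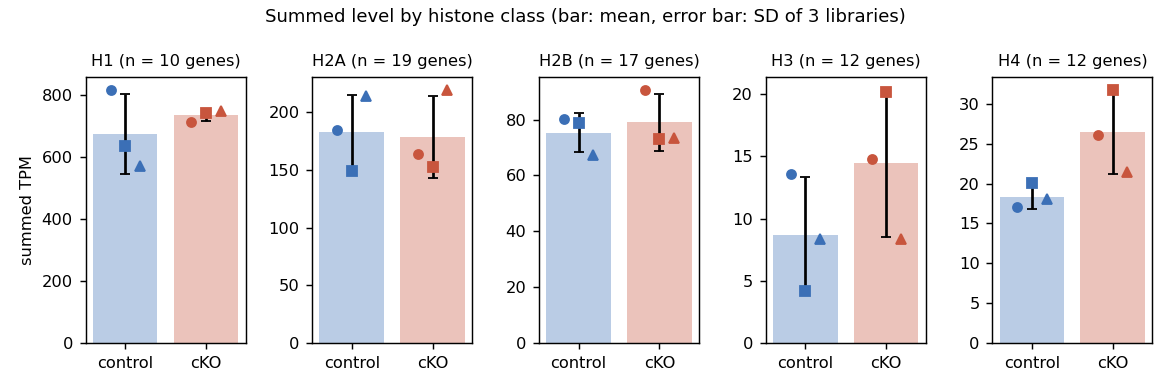
Summed TPM of the genes of each histone class in the 3 control (blue) and 3 cKO (red) libraries, with bars for the mean, error bars for the SD and symbols for replicates 1 (circle), 2 (square) and 3 (triangle). The 3 cKO libraries lie above the 3 controls for H4 (21.4 to 31.8 against 17.0 to 20.02 TPM), and the groups overlap in the other 4 classes.

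Across the whole table, the comparison of cKO with control used the criteria of the study, which ask for a p under 0.05 before adjustment and for group means more than 20% of the control mean apart, here with limma. By these, 2 of the 21 tested histone genes were higher in cKO (*H1f10* and *H4c9*) and 0 were lower. Among all 13719 genes tested, 1.55% were called higher, 2.47% lower and 4.02% in either direction, so such a count of 2 in 21 is to be read against that background. Under median-ratio scaling the calls over all genes were 310 higher and 300 lower in place of 213 and 339, and 179 and 627 after rescaling to the protein-coding total less *Amelx* and *Ambn*. With adjustment over all genes, 0 of the 21 passed by limma at 0.05 (0.0146% of all genes did), with 2 at an unadjusted p below 0.05. The groups did not overlap in 3 histone genes, all higher in cKO. Over all genes tested that held for 9.64%, 3.51% higher and 6.13% lower. Among the other 526 protein-coding genes of at most 1000 bases, it held for 72 that were higher and 8 that were lower. The criteria called 24 of these 526 higher and 5 lower. Of the 15 tested histone genes of that length, 2 were higher without overlap and 1 was called higher. Each of the 3 histone genes without overlap had an exact two-sided permutation p of 0.1, the smallest that 3 against 3 libraries allow. *H1f10* met the criteria under each of 16 other settings of the fit, and it lies outside the clusters. *H4c9*, the only cluster gene called, had an unadjusted p of 0.052 without control replicate 2, 0.080 without control replicate 3, 0.057 without cKO replicate 1 and 0.090 without cKO replicate 2.

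The fold changes were mostly small and positive. Of the 21 tested genes 17 had a log2 fold change above 0 and 4 below, with a median of 0.18, against -0.07 over all genes tested. Values by transcript length are given beside these. The 15 tested histone genes of at most 1000 bases had a median of 0.20, and the other 526 protein-coding genes of that length had a median of 0.19, with 445 above 0 and 81 below. The 6 tested histone genes over 1000 bases were all above 0, with a median of 0.16. After each library was corrected for transcript length and GC content, the median was 0.09 for all 21 histone genes, 0.11 for the 6 long ones, 0.08 for the other short genes and 0.00 for all genes. The part of transcript length in the fold changes was not tested. The median was 0.20 for the 15 tested genes with a stem-loop and 0.18 for the 6 without one. Among the 49 genes below 1 TPM, which were not tested, 30 had a higher mean in cKO, 13 a lower one and 6 were at 0 throughout. No such split over all genes below 1 TPM is set beside these counts, so they do not show a trait of the histone genes.

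**Figure D4:**
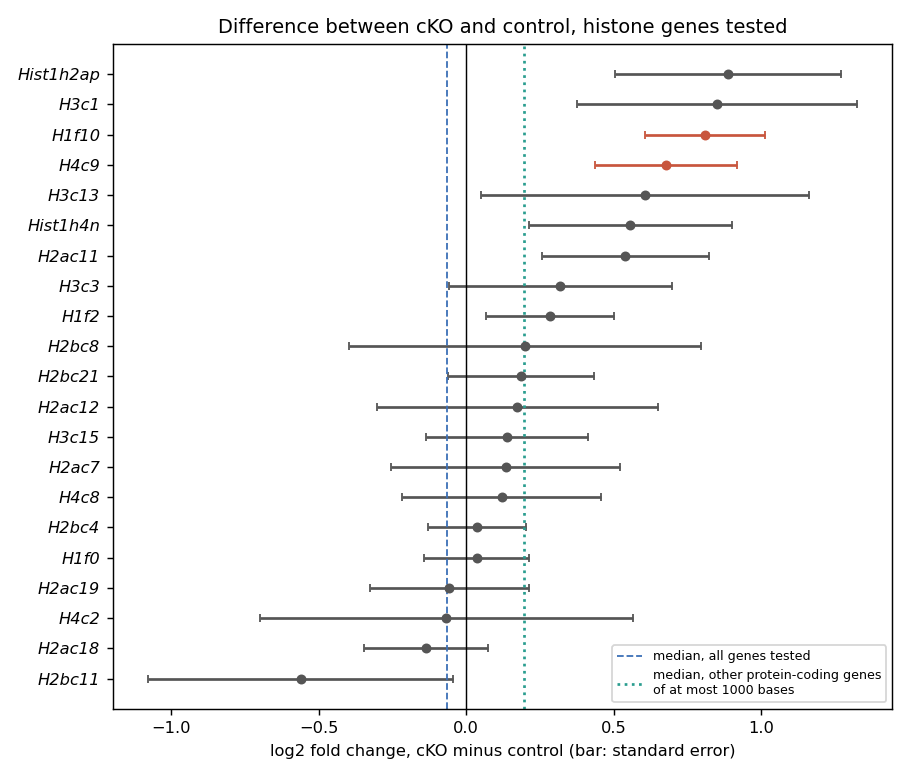
Log2 fold change of cKO against control for the 21 tested histone genes, with the standard error from limma, in red for the 2 genes that meet the criteria of the study (*H1f10* and *H4c9*). The dashed line marks the median of all 13719 genes (-0.07) and the dotted line that of the other protein-coding genes of at most 1000 bases (0.19), and most of the histone genes lie within 1 standard error of the dotted line.

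Cells also use histones encoded outside the clusters, most of whose mRNAs are polyadenylated. The 2 genes of the replacement histone H3.3, *H3f3a* and *H3f3b*, were at 806 to 1349 TPM and 495 to 1039 TPM, against a sum of 4.21 to 20.2 TPM for all 12 H3 genes of the clusters. Most cluster mRNAs lack a poly(A) tail, and the part of mRNA capture in this gap was not tested. A list of histones outside the clusters, fixed by hand, had 10 genes tested (it also holds *H1f0*, while *H1f10* is not counted in it). Of these 10, 2 met the criteria, both higher in cKO, and the median log2 fold change was 0.31. *H2az2*, a gene of the H2A.Z variant, was 59.8, 57.0 and 74.4 TPM in the controls and 84.7, 104 and 79.4 TPM in the cKO libraries (log2 fold change 0.48, SE 0.18, unadjusted p = 0.0297, adjusted p = 1.00, limma). *H2ax*, the variant phosphorylated at DNA breaks, was 41.4, 28.3 and 36.4 TPM in the controls and 47.6, 58.2 and 43.2 TPM in the cKO libraries (log2 fold change 0.48, SE 0.20, unadjusted p = 0.0459, adjusted p = 1.00, limma). In both the groups did not overlap, but neither call was stable. *H2az2* had an unadjusted p below 0.05 under 9 of 16 alternatives; it was 0.083 after the length and GC correction and 0.051 to 0.092 without control replicate 1 or 2 or cKO replicate 1 or 2. *H2ax* had one under 10 of 16, and it was 0.069 to 0.14 without control replicate 2 or 3 or cKO replicate 1 or 2. The cluster genes that the naming rule missed did not pass: *H2bu2* had a log2 fold change of 0.19 (SE 0.18) and *H2aw* one of 0.21 (SE 0.22).

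No gene of the machinery that makes and processes histone mRNA met the criteria, although some differed in level. *Slbp* was 21.04, 26.8 and 15.96 TPM in the controls and 18.02, 28.5 and 13.6 TPM in the cKO libraries, with overlapping groups and a log2 fold change of -0.11 (SE 0.31, unadjusted p = 0.72, limma). Of the 17 listed genes of histone mRNA transcription and processing, 0 met the criteria (median log2 fold change -0.06), with 0 at an unadjusted p below 0.05 by limma. The group means of *Casp8ap2* (4.83 and 2.59 TPM in control and cKO), the H4 promoter factor *Hinfp* (13.6 and 7.83 TPM) and *Upf1* (38.5 and 28.4 TPM) lay furthest apart, with overlapping groups and unadjusted p of 0.21, 0.089 and 0.067, and *Sympk* was lower in every cKO library (32.9 and 29.8 TPM, unadjusted p = 0.37). With 3 libraries a group these values do not show that the levels were alike. Of the 21 listed histone chaperones, which carry histones to DNA, 0 met the criteria (median -0.06). After the length and GC correction the median was 0.10 for the chaperones and 0.09 for the 17 genes of transcription and processing.

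Genes of the cell cycle were set beside the histones because cluster genes are transcribed in S phase. Of 40 listed genes of G1/S and S phase, 2 met the criteria and were higher in cKO, the replicative helicase subunit *Mcm3* (log2 fold change 0.66, SE 0.27, unadjusted p = 0.0455, limma) and the thymidylate synthase *Tyms* (0.67, SE 0.28, unadjusted p = 0.0485), with a median of 0.21 over the list. In both the groups overlapped, and the unadjusted p was below 0.05 under 9 of 16 alternatives for *Mcm3* and 7 of 16 for *Tyms*. It was 0.12 to 0.15 for *Mcm3* without control replicate 2 or 3 or cKO replicate 1 or 2, and 0.081 to 0.16 for *Tyms* without any library but cKO replicate 3. Of 30 listed genes of G2/M, 0 met the criteria (median 0.28). After the length and GC correction the median was 0.27 for the G1/S and S phase list and 0.30 for the G2/M list. It was 0.09 for the tested histone genes and 0.00 for all genes. The sum of the G1/S and S phase list was 499, 501 and 395 TPM in the controls and 544, 758 and 401 TPM in the cKO libraries. The 62 histone genes with a mean under 5 TPM summed to 46.6, 45.8 and 36.3 TPM in the controls and 57.5, 72.8 and 36.8 TPM in the cKO libraries. Both sums were highest in cKO replicate 2 and lowest in replicate 3 of each group, and in both the groups overlapped. The part of cycling cells in the histone values was not tested.

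Some RNAs without a poly(A) tail differed between the groups. The rRNA genes summed to 1363, 3283 and 2032 TPM in the controls and 16291, 12080 and 8400 TPM in the cKO libraries, with no overlap. The 3527 annotated snRNA, snoRNA, scaRNA, ribozyme and miscellaneous RNA genes summed to 550, 1449 and 704 TPM in the controls. In the cKO libraries they summed to 2971, 1712 and 983 TPM, and these groups overlapped. Of 10 tested genes in the list of RNAs without a poly(A) tail, 4 met the criteria and were higher in cKO: *Rpph1* (log2 fold change 1.43, SE 0.39, unadjusted p = 0.00785, limma), *Rmrp* (1.92, SE 0.65), and *Rn7s1* and *Rn7s2*, which hold identical values (2.04, SE 0.67). The groups did not overlap in *Rpph1* and overlapped in the other called genes. Of the 10 genes, 7 had a log2 fold change above 0 and 3 below, and that of *Rn7sk* was 0.06 (SE 0.41). *Rpph1* had an unadjusted p below 0.05 under all 16 alternatives, whereas it was 0.078 to 0.092 for *Rmrp* without cKO replicate 1 or 2 and 0.064 to 0.087 for *Rn7s1* and *Rn7s2* without control replicate 1 or 3 or cKO replicate 1 or 2. The 22 histone genes annotated to end within 100 bases of the stem-loop summed to 196, 160 and 225 TPM in the controls and 178, 168 and 233 TPM in the cKO libraries, a ratio of means of 1.00 that rests on *H2ac18* and *H2ac19*. The other 20 of these genes summed to 26.9, 26.8 and 23.1 TPM in the controls and 31.3, 44.9 and 27.1 TPM in the cKO libraries, a ratio of 1.35. The groups did not overlap, but cKO replicate 3 lay only just above control replicate 1 (27.06 and 26.92 TPM). This set was formed with the values in view, and no share of such sums over other gene sets is given beside it. The 19 genes that run on past the stem-loop summed to 189, 138 and 137 TPM against 206, 161 and 212 TPM, a ratio of 1.25 with overlapping groups. Markers of other cell types moved as well. Of 7 blood and immune markers tested, 1 met the criteria (*Hbb-bs*, lower in cKO; unadjusted p 0.053 to 0.097 without replicate 1 or 3 of either group), and the list summed to 1330 to 1986 TPM in the controls and 1167 to 1288 TPM in the cKO libraries. Of 6 endothelium markers, 2 met them, both lower in cKO (*Cdh5* and *Tek*), and both had an unadjusted p of 0.062 after the length and GC correction. Without a single library the p was 0.075 to 0.11 for *Cdh5* (replicate 1 or 3 of control, 1 or 2 of cKO) and 0.074 to 0.15 for *Tek* (any but control replicate 3). None of the 12 epithelium markers, the 12 mesenchyme markers or the 1 skeletal muscle marker tested met them. Of the epithelium markers, 11 had a log2 fold change below 0 and 1 above, with a median of -0.24. *Ambn* was 31405, 32180 and 33061 TPM in the controls and 24646, 8562 and 26263 TPM in the cKO libraries (log2 fold change -0.86, SE 0.42, unadjusted p = 0.077, limma). The part of these differences in the histone values was not tested.

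**Figure D5:**
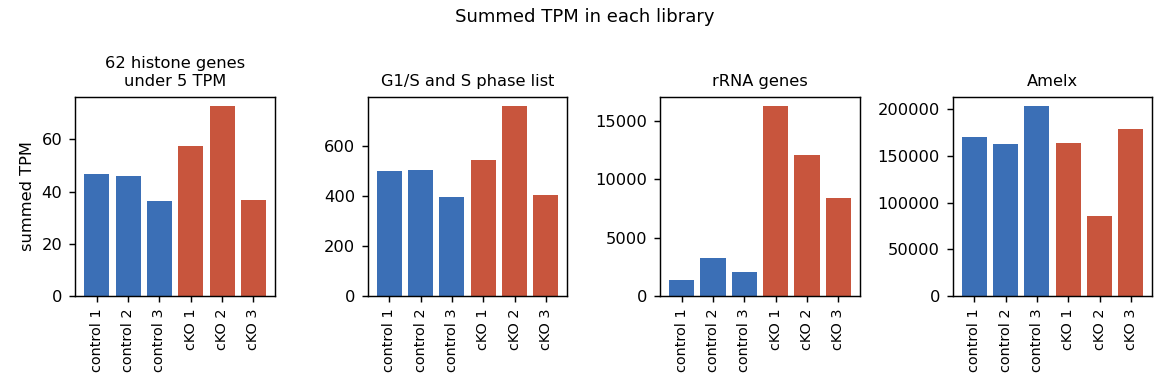
Summed TPM in each library (control blue, cKO red) of the 62 histone genes with a mean under 5 TPM, of the 40 genes of the G1/S and S phase list, of the rRNA genes and of *Amelx*. The first 2 panels peak in cKO replicate 2 (72.8 and 758 TPM), where *Amelx* is lowest, and the rRNA sum is higher in all 3 cKO libraries.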

How the data were processed

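RNA of M1 dental epithelium at PN2.5 was sequenced in 3 control and 3 cKO libraries, grouped by their labels. Per the methods, trimming by the authors used SeqPrep and Sickle, alignment HISAT2, and abundance estimates RSEM, whereas the submitters' processing notes name HISAT2 and StringTie. The deposited values are TPM (the methods name FPKM, but every library sums to between 983952 and 993946). The genome build is not given in the sources used here. Lengths, transcript ends and positions come from GENCODE M21 (GRCm38), which held 99.5% of the identifiers. Sequencing depth cannot be read from TPM, and precision is limited by the 3 libraries per group.

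log2(TPM + 1) of the 13719 genes averaging 1 TPM or more was fitted with limma 3.58.1 (R 4.3.3, mean-variance trend, no block), with Benjamini-Hochberg adjustment over all of them. A fold change on this scale understates that of low genes. The correction for length and GC content used natural splines of 4 degrees of freedom per library (13707 genes). The script was tested on simulated data.

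The histone genes and all lists were chosen with earlier results of these data known. Named are the members that meet the criteria, the 10 highest, the highest of each class, testis-specific members, list genes that meet the criteria, *Slbp*, *Wnt10a* and the top markers. All others, such as *Hist1h2ap*, *H3c1*, *H2bc11*, *Casp8ap2*, *Hinfp*, *Upf1* and *Sympk*, were picked with their values in view. So were the sums of near copies, of H4 without *H4c9* and of stem-loop genes without *H2ac18* and *H2ac19*. Alternatives were a pseudocount of 0.1, no filter, 3 other normalizations, the replicate number as a block, the correction, no trend, Student's test, leaving out each library and other member sets. Those by GENCODE names and without the 4 genes outside the clusters were added after the data were seen. Imaging and RT-qPCR of the study were not analysed here.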

Additional observations from a re-analysis of the deposited data

How the results depend on the processing

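The count of histone genes meeting the criteria of the study was 2 as reported, beside 4.02% of all genes. Without a filter on low values it was 6 (adding *H4c1*, *H4c3*, *H4c6* and *H2bc12*, all below 1 TPM), beside 3.33% of all genes. That setting tested every gene above 0 in some library, 28254 over the table, so these 2 counts are out of unlike totals. The count was 4 under quantile normalization (4.73% of all genes) and 4 under median-ratio scaling (4.45%), both adding *H2ac11* and *Hist1h2ap*. By Student's test it was 1 (3.35% of all genes), where *H4c9* had an unadjusted p of 0.071. It was also 1 with the members by GENCODE M21 names and 1 without the 4 genes outside the clusters. When a library was left out it was 1 to 3, with 1.49% to 8.45% of all genes called. It was 1 without control replicate 2, control replicate 3, cKO replicate 1 or cKO replicate 2. The count at an adjusted p below 0.05 was 0 under all 20 alternatives. The median log2 fold change lay between 0.09 and 0.36 under its 18 alternatives. The H4 sum had a log2 ratio of 0.77 with members of at least 5 TPM only (*H4c9* alone), against 0.52. When a library was left out, the log2 ratio of the sums ranged from 0.05 to 0.23 for all 70 genes (0.11 as reported), 0.015 to 0.28 for H1 (0.12), -0.21 to 0.10 for H2A (-0.03), -0.043 to 0.12 for H2B (0.07), 0.40 (without control replicate 2) to 1.20 (without control replicate 1) for H3 (0.73) and 0.37 to 0.65 for H4.

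The methods of the study write of 3 pairs of biological replicates but do not say what was paired. Replicate numbers are shared by both groups in the titles, and the deposited column names also carry the same numbers in both groups. The correlations of same-numbered deviations were -0.08, 0.29 and 0.40. Pairing was accepted only if each exceeded 0.1, so the fit reported has no block. As a hint from the data, 4 of the 6 libraries correlated best with the library of their own number. With the replicate block 4 histone genes met the criteria (adding *H2ac11* and *Hist1h2ap*), while over all genes the block moved the calls from 552 to 1315 (9.59%). With the length and GC correction and the block, 4 met them (3 higher, and *H2bc11* lower), beside 8.1% of all genes.

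The log2 fold change of 11 of 38 single genes, none of them called, changed sign under some alternative. *H1f0* was -0.11 under quantile normalization and -0.014 when rescaled to protein-coding genes, *H2ac19* 0.018 under median-ratio scaling, and *H2bc4* -0.010 when rescaled. After the length and GC correction, with or without the replicate block, *H2bc4* was -0.10, *H4c8* -0.00064 and *H2ac12* -0.035. Leaving out 1 library at a time gave -0.11 to 0.19 for *H1f0*, -0.27 to 0.12 for *H2ac19*, -0.33 to 0.017 for *H2ac18*, -0.074 to 0.15 for *H2bc4*, -0.12 to 0.41 for *H4c8*, -0.42 to 0.63 for *H2bc8*, -0.090 to 0.26 for *H3c15*, -0.64 to 0.36 for *H4c2*, -0.19 to 0.56 for *H2ac12*, -0.26 to 0.38 for *H2ac7* and -0.39 to 0.12 for *Slbp*. The cause of these changes was not tested. Depth is unknown, and levels near 1 TPM limit what single genes can show.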
